A study of Mus musculus with 12 samples.

Results

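The genes described here are 36 that a cell uses to pass from G1 into S phase and copy its DNA. All were chosen by name with earlier results of these data known, and all were found among the 55487 gene rows of a kidney count table. They were 6 subunits of the MCM helicase, 8 licensing and helicase activation factors, 10 genes of the clamp, clamp loader, polymerases and Okazaki fragment enzymes, 4 enzymes of deoxynucleotide supply, 3 G1/S regulators and 5 genes for chromatin and histones at the fork. Bulk RNA-seq of mouse kidney cortex was available for 12 libraries in 4 groups of 3. Ctrl were sham-operated mice that the labels call WT and the study's methods describe as carrying floxed ALR with no Cre. PT-KO were sham-operated mice that the labels call ALR knockdown, in which Ggt1-Cre, active in proximal tubule, was used to delete floxed ALR (gene Gfer, augmenter of liver regeneration). Ctrl+I/R and PT-KO+I/R were the same genotypes after 22 min of bilateral renal ischemia and 24 h of reperfusion. By the study's methods all mice were young and of mixed C57BL/6 background, and the labels give no age.

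DNA copying begins in G1, when the ORC complex, Cdc6 and Cdt1 load the MCM helicase on origins. Cyclin E with its kinase and the Dbf4-dependent kinase then fire the origins, Cdc45 and GINS join MCM to form the moving helicase, and the clamp Pcna holds the polymerases on DNA. Most of these genes are targets of E2F transcription factors, which the retinoblastoma family holds in check until G1 ends. Adult kidney tubule cells rarely divide, and surviving tubule cells are known to re-enter the cell cycle after ischemic injury.

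Promoters are shown for the 3 genes that held an E2F site and had the greatest fold difference between injured PT-KO and injured Ctrl kidneys. The sequences are from RefSeq on GRCm38.p6, on the plus strand, from 250 bases before the annotated start to 30 bases after it. Capitals mark an exact match to an E2F site, searched as TTTCCCGC, TTTGGCGC, TTTCGCGC or TTTGCCGC on both strands.
Pclaf, chr9:65890073-65890352: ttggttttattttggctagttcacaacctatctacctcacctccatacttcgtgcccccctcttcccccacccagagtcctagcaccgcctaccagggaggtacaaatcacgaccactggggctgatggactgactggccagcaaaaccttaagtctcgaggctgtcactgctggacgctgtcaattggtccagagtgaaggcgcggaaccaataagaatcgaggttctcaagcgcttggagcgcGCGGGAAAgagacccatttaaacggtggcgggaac
Cdc6, chr11:98907901-98908180: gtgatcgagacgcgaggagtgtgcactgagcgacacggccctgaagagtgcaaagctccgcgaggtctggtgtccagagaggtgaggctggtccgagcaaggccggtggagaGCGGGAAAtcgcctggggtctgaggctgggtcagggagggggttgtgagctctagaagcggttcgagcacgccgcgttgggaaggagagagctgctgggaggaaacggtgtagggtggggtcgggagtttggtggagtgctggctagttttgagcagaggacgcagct
Mcm5, chr8:75109259-75109538: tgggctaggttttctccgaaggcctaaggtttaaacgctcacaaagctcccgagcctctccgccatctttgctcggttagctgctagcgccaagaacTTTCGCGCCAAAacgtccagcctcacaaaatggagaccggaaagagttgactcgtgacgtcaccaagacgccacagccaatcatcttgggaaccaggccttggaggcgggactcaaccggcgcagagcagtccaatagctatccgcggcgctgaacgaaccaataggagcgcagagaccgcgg
In Pclaf the site began 5 bases before the start, and in Cdc6 138 bases before it. In Mcm5 a pair of sites on opposite strands overlapped, beginning 153 and 149 bases before the start. A promoter window of 250 bases before to 50 after the start was matched for 30 of the 36 genes, and 13 of the 30 (43.3%) held such a site, against 704 of 27025 genes with a window (2.6%). The CCAAT box, searched on both strands as CCAAT, was in 18 of the 30 (60%) against 41.1% of all genes. These are matches of letters and do not show binding.

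Libraries held 12165089 to 23123693 counts, and mitochondrial transcripts took 11.6% to 16.1% of them. Between replicates the counts varied 8.2 to 66.3 times as much as counting alone would give, so the spread between libraries exceeded counting error. One Ctrl column could be assigned to its group by name but to no single sample, and is called library 3. Ctrl libraries 1 and 2 carried Xist (22402 and 19755 counts) and no Y-linked transcripts, whereas the other 10 libraries had at most 11 Xist counts, so every comparison with Ctrl was also made without these 2 libraries. Gfer was not lower in the libraries labelled PT-KO: it was at 12.7, 11.4 and 14.4 CPM (counts scaled to a common library size with TMM factors) in Ctrl and at 9.97, 17.1 and 15.03 in PT-KO. After I/R the Gfer level was 15.3, 20 and 17.6 CPM with the Ctrl label, whereas PT-KO+I/R libraries gave 21.65, 22.8 and 21.6. Gfer did not pass the test between genotypes in sham (log2 fold change 0.13, adjusted p = 0.761) or in injured kidneys (0.32, adjusted p = 0.0723), and the groups are named by their labels. Counts per gene cannot show whether the floxed exons were missing from the transcripts. The study itself reports lower ALR expression in kidneys of PT-KO mice than of control mice. Proximal tubule markers summed to 14450 to 48850 CPM over the 12 libraries. Dividing by library totals in place of TMM moved the median of all genes by 0.12 on the log2 scale in Ctrl+I/R versus Ctrl, by -0.21 in PT-KO+I/R versus Ctrl+I/R and by -0.12 in PT-KO versus Ctrl. It removed none of the calls among the 36 genes.

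In Ctrl kidneys the replication genes were expressed at low levels. Per kilobase of exon, Pcna was highest at 15.7 CPM per kb, followed by Gins4 at 8.78 and Mcm6 at 5.30, and the ranges of these 3 over the 3 libraries did not overlap. The range of Mcm6 (4.183 to 6.105) contained that of Mcm7 (4.396 to 4.463), the next gene in order. Cdc6, the loader of MCM, was lowest at 0.160 CPM per kb, and Ccne1, cyclin E1, was next at 0.278. The ranges of those last 2 overlapped (0.117 to 0.211 and 0.189 to 0.416 CPM per kb). Together the 36 genes summed to 289.7 to 311.3 CPM in Ctrl and 280 to 299.1 in PT-KO. After I/R the sum was 761.6 to 1149 CPM in Ctrl+I/R and 365.4 to 379.6 in PT-KO+I/R.

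**Figure D1:**
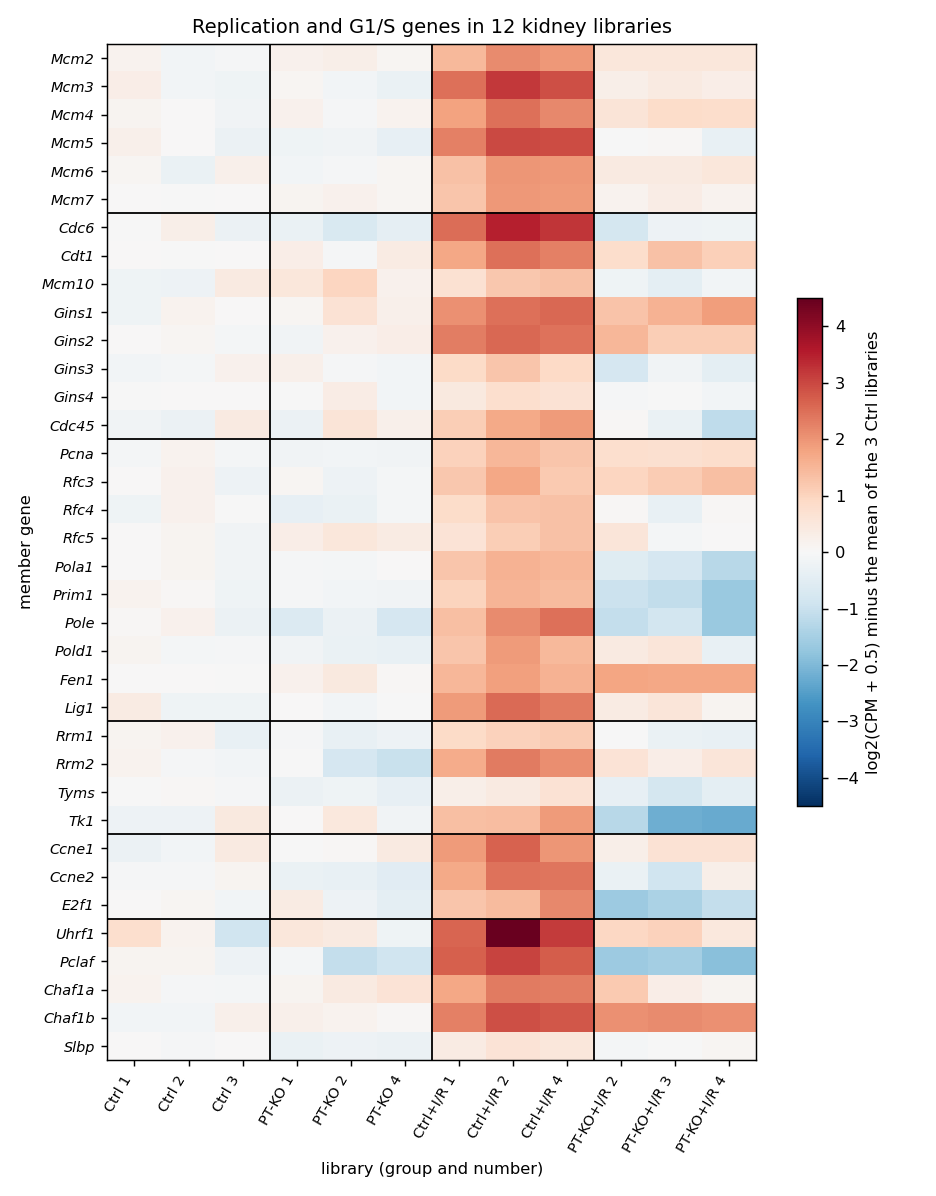
Level of each of the 36 genes (rows, ordered by role) in each of the 12 libraries (columns), as log2(CPM + 0.5) minus the mean of the 3 Ctrl libraries. The Ctrl+I/R columns are red throughout, with library 1 the palest, while in PT-KO+I/R a few genes such as Fen1 and Chaf1b stay red and others such as Tk1, E2f1 and Pclaf are blue.

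The first comparison asked how these genes differed between injured and sham kidneys with the Ctrl label. All 36 were tested and all 36 rose in Ctrl+I/R versus Ctrl in edgeR's quasi-likelihood test (Benjamini-Hochberg adjusted p 0.00231 to 0.0432), where 11.4% of the 15567 genes tested rose. The groups did not overlap for any of the 36, against 43.7% of all genes without overlap. The median log2 fold change was 1.78, beside -0.01 for all genes. It ran from 0.46 for Tyms to 3.73 for Cdc6, and 33 of the 36 rose by over 2-fold and 16 by over 4-fold. Ccne1 passed the low-count filter of this comparison through Ctrl+I/R alone.

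Among the helicase subunits Mcm5 stood at 8.70, 7.40 and 5.99 CPM in Ctrl and 37.3, 60.1 and 59.6 in Ctrl+I/R. Mcm3 stood at 7.39, 5.38 and 5.10 CPM in Ctrl and 35.4, 57.9 and 47.7 in Ctrl+I/R. The lowest injured library was over 4 times the highest sham library for both genes. The log2 fold changes were 2.83 ± 0.22 (SE, n = 3 against 3) for Mcm5 and 2.98 ± 0.22 for Mcm3, against 1.78 to 2.24 for Mcm2, Mcm4, Mcm6 and Mcm7.

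Of the licensing and activation factors Cdc6 changed most, from 0.804, 1.10 and 0.610 CPM in Ctrl to 7.15, 14.5 and 11.8 in Ctrl+I/R. These Ctrl values rested on 11 to 18 counts. Cdt1, which brings MCM to Cdc6 and ORC, rose by 2.33 ± 0.21 on the log2 scale. The GINS subunits, which form a complex of 4 proteins, rose unequally: by 2.93 for Gins1 and 2.75 for Gins2, but by 1.17 for Gins3 and 0.65 for Gins4.

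Pcna stood at 35.3, 41.8 and 35.6 CPM in Ctrl and 77.5, 107 and 89.8 in Ctrl+I/R, a log2 fold change of 1.29 ± 0.14. The clamp loader subunits Rfc3, Rfc4 and Rfc5 rose by 1.08 to 1.49 on the same scale, and the catalytic subunits of polymerases alpha, delta and epsilon (Pola1, Pold1 and Pole) by 1.51, 1.64 and 2.17. Lig1, the ligase that joins Okazaki fragments, rose by 2.37, and Fen1, the nuclease that trims their flaps, by 1.73.

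In deoxynucleotide supply Rrm2, the ribonucleotide reductase subunit made for S phase, rose by 2.12 ± 0.18 and its partner Rrm1 by 1.03 ± 0.15 on the log2 scale. Tyms, which makes thymidylate, stood at 16.1, 16.9 and 15.4 CPM in Ctrl and 19.5, 21.5 and 25.3 in Ctrl+I/R, the smallest change of the 36. Uhrf1, which reads newly copied methylated DNA, had the widest spread, with 4.22, 2.63 and 0.998 CPM in Ctrl and 16.6, 61.1 and 24.6 in Ctrl+I/R. Its log2 fold change was 3.69 ± 0.62.

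Ctrl+I/R library 1 lay below libraries 2 and 4 for most of the genes, with a median distance from Ctrl of 1.36 on the log2 scale against 1.97 and 1.95. Without the 2 Ctrl libraries that carry Xist, in a fit to the other 10 libraries in which the lone Ctrl library is assumed to vary like the other groups, 28 of the 36 passed and the median was 1.82. The 8 that did not pass were Mcm10, Gins3, Gins4, Cdc45, Rfc5, Tyms, Tk1 and Slbp. Leaving out Ctrl library 1 alone lost 10 calls and leaving out Ctrl library 2 alone lost 9, and 25 of the 36 kept their call whichever single library was left out. Tyms lost its call in all 6 of these fits, Gins3 in 4 and Mcm10 in 3.

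Other cell types moved with injury in the same libraries. In Ctrl+I/R all 4 leukocyte markers rose, with a summed level of 53.2 to 112 CPM against 26.6 to 32.8 in Ctrl. Of 7 macrophage markers 5 rose (summed level 123 to 233 against 86.6 to 106 CPM), and of 5 stroma markers 3 rose (418 to 575 against 130 to 181 CPM). All 5 neutrophil markers tested rose (9.49 to 41.6 against 1.46 to 2.33 CPM), as did all 5 injured tubule markers (571 to 2669 against 12.6 to 23.6 CPM), and all 3 podocyte markers fell (284 to 329 against 403 to 530 CPM). Proximal tubule markers summed to 14450 to 23040 against 23960 to 40730 CPM, with 3 of 10 lower. Distal nephron and collecting duct markers summed to 1687 to 4260 against 5805 to 7733 CPM (2 of 5 lower), and endothelial markers to 276 to 302 against 285 to 321 CPM (2 of 5 lower). Their part in the result was not tested, and in bulk tissue more cells of a type and more RNA per cell cannot be told apart, nor can fewer and less. T cell markers summed to 5.82 to 16.1 CPM against 3.38 to 10.8 and erythroid markers to 97.8 to 245 against 150 to 281, both overlapping Ctrl.

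In injured kidneys the replication genes were lower with the knockout label. Of the 36, 34 fell in PT-KO+I/R versus Ctrl+I/R (edgeR, adjusted p 5.0e-05 to 0.0269) and none rose, where 24.4% of the 15281 genes tested fell. For the same 34 the groups did not overlap, against 58.7% of all genes. The median log2 fold change was -1.52, beside a median of 0.00 for all genes, and 28 genes were lower by over 2-fold and 14 by over 4-fold. The 34 include Pclaf and Cdc6, which passed the low-count filter through Ctrl+I/R alone. The comparison shares its Ctrl+I/R libraries with the one before it.

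**Figure D2:**
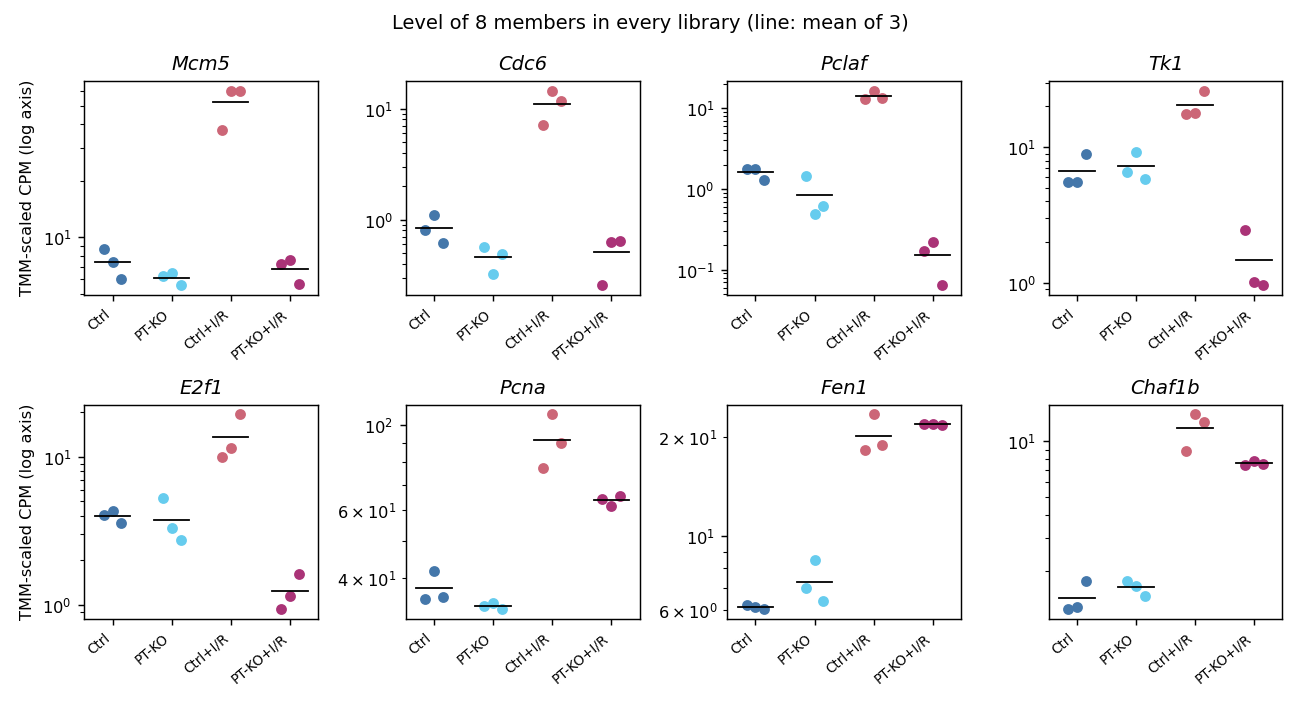
Level of 8 of the genes in every library (TMM-scaled CPM on a log axis, each point 1 library, the line the mean of 3). Cdc6, Pclaf, Tk1 and E2f1 in PT-KO+I/R lie at or below the sham groups, Mcm5 lies at their level, and Pcna, Fen1 and Chaf1b lie above them.

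Pclaf, a small protein that binds the Pcna clamp, differed most. Its levels in Ctrl+I/R were 12.9, 16.5 and 13.3 CPM, whereas PT-KO+I/R libraries gave 0.171, 0.223 and 0.0645. The 3 PT-KO+I/R libraries held 8 Pclaf counts in all against 814, a ratio of 88.1 with a 95% exact interval of 44.5 to 205 that covers counting error only. Cdc6 was the next in size, at 0.257, 0.623 and 0.645 CPM in PT-KO+I/R versus 7.15 to 14.5 in Ctrl+I/R, a ratio of 20 in counts with an interval of 13.6 to 30.6. Both genes passed the low-count filter of this comparison through Ctrl+I/R alone.

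Tk1, the thymidine kinase of S phase, had 17.6, 17.9 and 26.1 CPM in Ctrl+I/R, whereas PT-KO+I/R libraries had 2.48, 1.02 and 0.967. The log2 fold change was -3.86 ± 0.36 (adjusted p = 3.1e-04). Pole, the catalytic subunit of the leading-strand polymerase, fell by 3.55 and E2f1, a transcription factor that drives S-phase genes, by 3.45 on the log2 scale. E2f1 stood at 0.941, 1.16 and 1.61 CPM in PT-KO+I/R, against 10, 11.5 and 19.4 in Ctrl+I/R.

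The other helicase genes fell less far. Mcm5 fell by 2.94 and Mcm3 by 2.65, whereas Mcm2, Mcm4, Mcm6 and Mcm7 fell by 1.35 to 1.56. Mcm5 in PT-KO+I/R (7.19, 7.57 and 5.67 CPM) overlapped the range of the Ctrl libraries given above. Of the primase and polymerase genes Prim1, the primase, fell by 2.73 and Pola1 by 2.42, and Pold1 fell by 1.37. The cyclins E fell by 2.02 for Ccne1 and 2.71 for Ccne2.

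The other 8 genes differed by less than 2-fold between the injured groups. Fen1 had 18.2, 23.4 and 18.9 CPM in Ctrl+I/R, whereas PT-KO+I/R libraries had 21.9, 21.8 and 21.7, and the gene did not pass the test (log2 fold change 0.11 ± 0.12, adjusted p = 0.502). Rfc3 also did not pass (-0.25 ± 0.20, adjusted p = 0.319). Pcna, Slbp (which binds the stem-loop of histone mRNA) and Chaf1b (a subunit of the histone chaperone CAF-1) passed with differences of -0.52, -0.53 and -0.64, and Gins4, Gins1 and Rfc5 with -0.71, -0.88 and -0.90. The call was lost for Chaf1b when any of 5 of the 6 libraries was left out, all but Ctrl+I/R library 1. Gins1 lost it without Ctrl+I/R library 4, PT-KO+I/R library 2 or PT-KO+I/R library 3, and Rfc5 without PT-KO+I/R library 3 or 4.

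The leukocyte markers fell together with these genes. All 4 passed the test as lower in PT-KO+I/R, where they summed to 18.6 to 20.1 CPM against 53.2 to 112 in Ctrl+I/R. Macrophage markers summed to 59.3 to 67.2 against 123 to 233 CPM (5 of 7 lower, 1 higher), stroma markers to 136 to 221 against 418 to 575 (2 of 5 lower) and erythroid markers to 43.5 to 50.2 against 97.8 to 245 (5 of 7 tested lower). T cell markers summed to 0.428 to 0.838 CPM against 5.82 to 16.1 (all 3 tested lower), with 1 to 3 of the 6 markers at 0 in each PT-KO+I/R library. B cell markers summed to 0.599 to 1.11 CPM against 5.88 to 7.77 (the 1 tested was lower), with 1 to 4 of 5 at 0. Of 3 podocyte markers 1 was lower (summed level 302 to 350 against 284 to 329 CPM). Neutrophil markers were at 54.8 to 82.8 against 9.49 to 41.6 CPM, with 3 of 5 tested higher, and injured tubule markers at 4850 to 6364 against 571 to 2669, with 4 of 5 higher and Vcam1 lower (log2 fold change -1.35). Endothelial markers were at 367 to 374 against 276 to 302 CPM (3 of 5 higher) and dendritic cell markers at 8.32 to 13.6 against 18.9 to 61.3 CPM (both of those tested lower). Proximal tubule markers were at 19760 to 20870 against 14450 to 23040 CPM (5 of 10 lower, 1 higher), and 2 of 5 distal nephron and collecting duct markers were lower (2246 to 2727 against 1687 to 4260 CPM). Mitochondrial transcripts took 13.6% to 16.1% of counts in PT-KO+I/R against 11.8% to 13.2% in Ctrl+I/R, and the 10 most abundant genes of each library took 19.5% to 21.6% against 16.3% to 18.6%, both without overlap. The part of these cell types and library measures in the result was not tested.

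**Figure D3:**
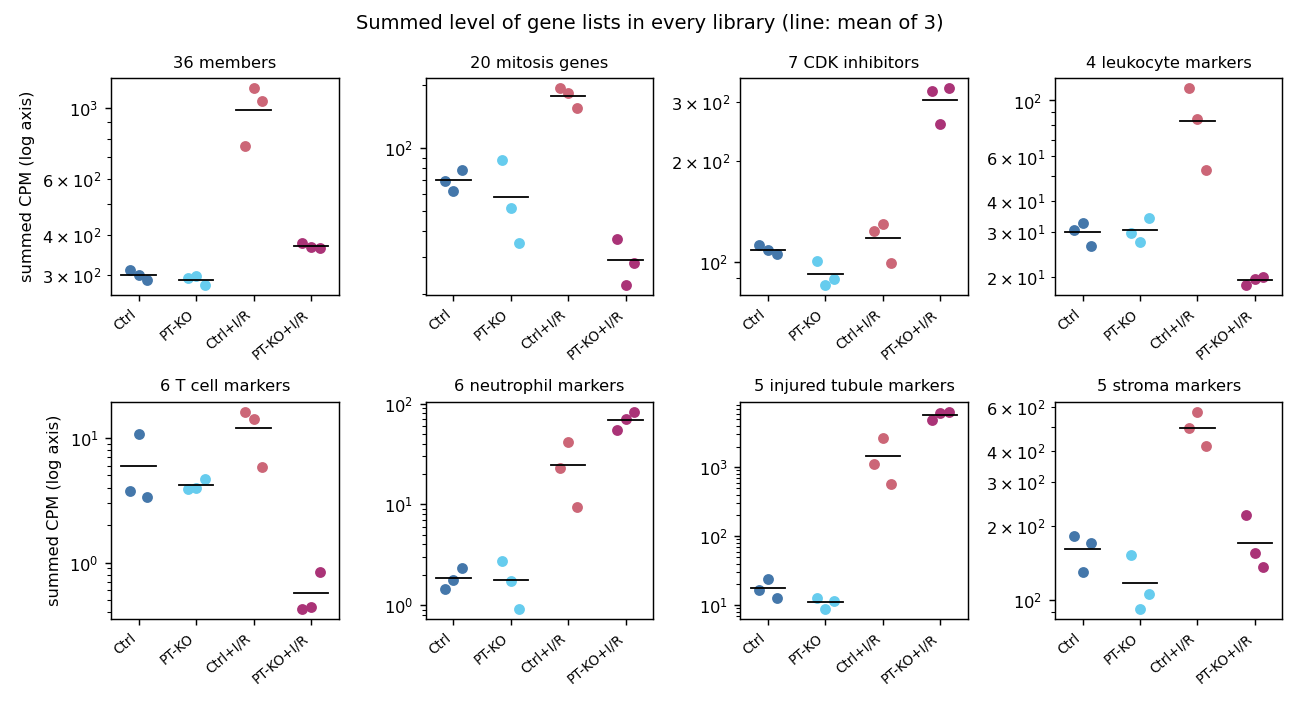
Summed CPM (log axis) of 8 gene lists in every library (points) with the mean of 3 (line). The replication genes, the mitosis genes, the leukocyte markers and the stroma markers are highest in Ctrl+I/R, while the CDK inhibitor sum, most of which is Cdkn1a in PT-KO+I/R (187 to 256 CPM), the neutrophil markers and the injured tubule markers are highest in PT-KO+I/R.

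Against their own sham group the injured PT-KO kidneys gave a mixed picture. Cdc6 and Pclaf were too low to be tested in PT-KO+I/R versus PT-KO. Of the other 34 genes, 12 rose and 5 fell (edgeR, adjusted p 5.6e-06 to 0.0457), where 32.9% of the 15155 genes tested rose and 32.7% fell. The share of the 34 that rose was thus near that of all genes, and the share that fell was below it. The groups did not overlap for 22 of the 34, against 70.8% of all genes, and the median log2 fold change was 0.23, beside 0.01 for all genes. Under a stricter rule, which the study states for PT-KO+I/R versus Ctrl+I/R and not for this comparison (a log2 change past 1 either way at an unadjusted p below 0.01), 6 of the genes were higher and 3 lower, where 29.1% of all genes passed.

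The genes that rose were Mcm2, Mcm3, Mcm4 and Mcm6, Cdt1, Gins1 and Gins2, Pcna, Rfc3, Fen1, Rrm2 and Chaf1b. For Chaf1b the PT-KO libraries gave 1.77, 1.67 and 1.47 CPM and the PT-KO+I/R libraries 7.44, 7.83 and 7.54, a log2 fold change of 2.21 ± 0.20. Fen1 rose by 1.57 ± 0.14, from 7.004, 8.51 and 6.38 CPM to nearly equal values near 21.8. Gins1 rose by 1.53, Rfc3 by 1.32, Gins2 by 1.28 and Rrm2 by 1.06, and the other rises were below 2-fold. The smallest, Mcm2 (0.32) and Mcm3 (0.45), lost their calls with DESeq2, without the low-count filter and in a fit to all 12 libraries. With single libraries left out, Mcm2 lost its call in all cases but PT-KO library 2 and PT-KO+I/R library 2, and Mcm3 in all but PT-KO library 1 and PT-KO+I/R library 2.

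The genes that fell below their sham level were Tk1, E2f1, Prim1, Mcm10 and Pola1. Tk1 stood at 6.56, 9.32 and 5.89 CPM in PT-KO and fell by 2.36 ± 0.36 on the log2 scale after injury, and E2f1 stood at 5.24, 3.29 and 2.76 CPM and fell by 1.59 ± 0.34. Prim1 fell by 1.23 and Mcm10, which helps to activate the loaded helicase, by 0.95. Pola1, the partner of Prim1 in making primers, fell by 0.87. Each of these 5 had risen in Ctrl+I/R, by 1.14 to 1.78.

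Tubule and leukocyte markers also differed between PT-KO+I/R and PT-KO. All 10 proximal tubule markers fell (summed level 19760 to 20870 CPM, from 38010 to 48850), as did all 5 of the distal nephron and collecting duct (2246 to 2727 CPM, from 5653 to 6550). All 5 injured tubule markers rose (4850 to 6364 CPM, from 8.89 to 12.6), as did all 5 neutrophil markers tested (54.8 to 82.8 CPM, from 0.920 to 2.71). Of the 4 leukocyte markers 2 fell and none rose (18.6 to 20.1 CPM, from 27.5 to 34.1). All 3 dendritic cell markers tested fell (8.32 to 13.6 CPM, from 46.3 to 60.8), as did 4 of 7 macrophage markers, with 1 higher (59.3 to 67.2 CPM, from 89.3 to 92.6), and 3 of 7 erythroid markers tested (43.5 to 50.2 CPM, from 96.7 to 145). Of 5 endothelial markers 3 rose and 1 fell (367 to 374 CPM, from 285 to 307), and 2 of 5 stroma markers rose (136 to 221 CPM, from 92.4 to 152). The 1 T cell and the 1 B cell marker tested fell, as did 1 of 3 podocyte markers. Their part in the result was not tested.

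**Figure D4:**
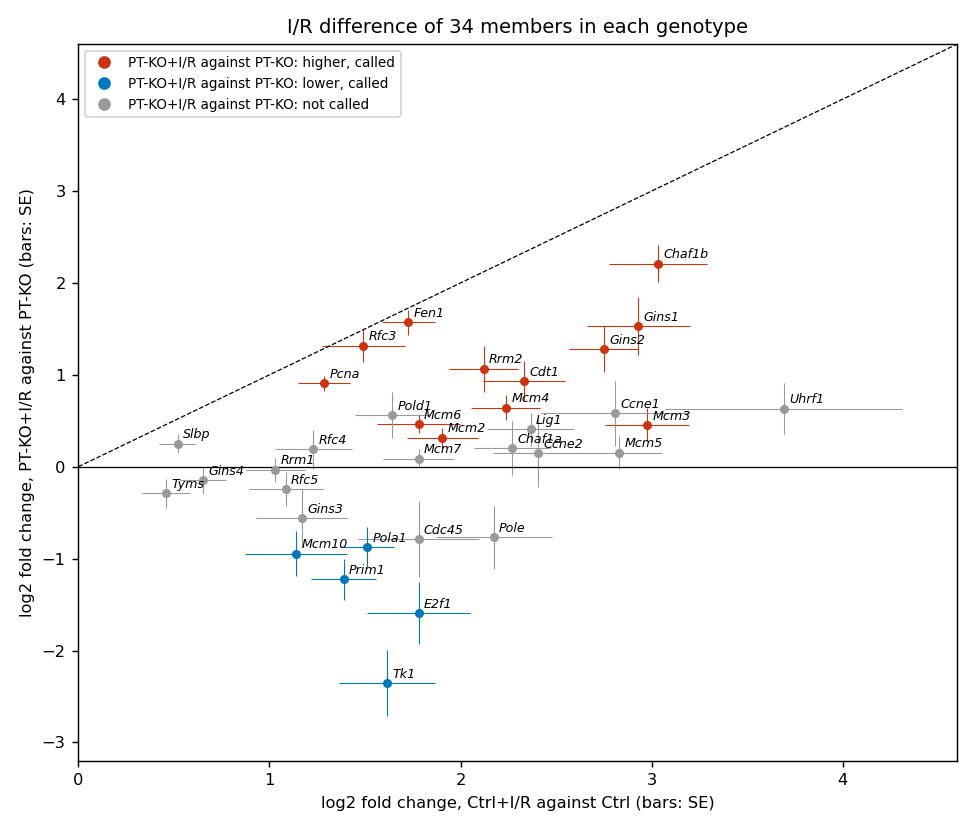
Log2 fold change after I/R in PT-KO (y axis) against that in Ctrl (x axis) for the 34 genes tested in both, with SE bars, the dashed line marking equal change and the colours the call in PT-KO. All 34 points lie below the dashed line, with Fen1 and Rfc3 nearest to it and Tk1 and E2f1 far below it.

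The I/R log2 fold change was lower in PT-KO than in Ctrl for all 34 genes tested in both. Across genes, which are not independent replicates, the log2 fold changes had a Spearman rho of 0.483 over these 34 genes, given as a description. The interaction of knockout label and I/R, fitted to all 12 libraries, passed for 31 of the 36 (edgeR, adjusted p 1.0e-04 to 0.0353), all with a negative interaction, meaning a lower I/R log2 fold change in PT-KO (a smaller rise or a fall), where 16.4% of 16168 genes did so. The median interaction was -1.63 on the log2 scale, beside -0.02 for all genes. It was -3.97 ± 0.47 for Tk1 and -3.36 ± 0.44 for E2f1. The fitted values of Pclaf (-5.49 ± 0.60) and Cdc6 (-3.51 ± 0.59) rest on 8 and 27 counts in all over the 3 PT-KO+I/R libraries, and both genes were too low for the test of PT-KO+I/R versus PT-KO. The 5 that did not pass were Fen1 (-0.14 ± 0.19), Rfc3 (-0.16 ± 0.28), Slbp (-0.26 ± 0.13), Pcna (-0.37 ± 0.16) and Chaf1b (-0.82 ± 0.30). Without the 2 Ctrl libraries that carry Xist 21 passed, and Cdt1, Gins1, Gins3, Gins4, Cdc45, Rfc4, Pold1, Rrm2, Tyms and Ccne1 did not.

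Because some partners in one complex moved apart, ratios of counts within each library were taken, for such partners and for other pairs of related genes. The pairs were chosen after their values were seen and are given without a test. The ratio of Chaf1b to Chaf1a, both CAF-1 subunits, was 0.222 to 0.457 in the sham libraries, 0.563 to 0.600 in Ctrl+I/R and 0.737 to 1.62 in PT-KO+I/R. The ratio of Gins1 to Gins3 was 0.356 to 0.838 in sham, 1.23 to 1.79 in Ctrl+I/R and 1.93 to 3.18 in PT-KO+I/R. Both ratios were thus higher in every injured library than in every sham library.
Other pairs set PT-KO+I/R apart from the other 3 groups. The ratio of Fen1 to Lig1 was 2.43 to 3.27 there and 0.573 to 1.55 elsewhere, and that of Rfc3 to Rfc4 was 1.83 to 2.81 there and 0.793 to 1.31 elsewhere. The ratio of Prim1 to Pold1 was 0.440 to 0.549 there against 1.14 to 1.76 elsewhere, and that of Tk1 to Tyms 0.0824 to 0.201 against 0.330 to 1.03. Mcm5 to Mcm7 instead set Ctrl+I/R apart, at 0.771 to 0.784 against 0.256 to 0.440 in the other groups. In 4 of the other 5 of the 12 pairs taken the injured groups overlapped. For these, Gins2 to Gins3 was at 2.39 to 5.67 in PT-KO+I/R and 2.25 to 2.76 in Ctrl+I/R, Rrm2 to Rrm1 at 0.621 to 0.765 and 0.735 to 1.01, Rfc5 to Rfc4 at 1.86 to 2.75 and 1.64 to 1.89, and Ccne1 to Ccne2 at 0.423 to 1.14 and 0.264 to 0.427. Gins4 to Gins3 was 3.54 to 4.44 in Ctrl+I/R, below the 4.58 to 11.2 of the other groups. Of the 36 genes 18 overlap another annotated gene, and the strand setting of the counting is not given in the sources used here, so reads of those neighbours may be included (Fen1 overlaps Tmem258, and Tk1 overlaps Afmid).

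E2F sites were found in genes of every response in PT-KO. Among genes with a promoter window, a site was in 4 of 9 that rose in PT-KO+I/R versus PT-KO, 1 of 5 that fell, 6 of 14 that were not called and both that were not tested.

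Between the sham groups the genes lay close together. None of the 36 genes passed the test between PT-KO and Ctrl, where edgeR called 0 of 15291 genes (0%). At an unadjusted p under 0.05 there were 4 of the 36 (Rfc5, Pole, Tyms and Slbp) and 2573 of all genes (16.8%). DESeq2 called 440 genes and none of the 36. The groups did not overlap for 9 of the 36, against 21% of all genes. The median log2 fold change was -0.04, beside -0.01 for all genes, with a range from -0.93 for Pclaf to 0.62 for Mcm10, and the smallest adjusted p was 0.212. Pclaf, Cdc6 and Ccne1 passed the low-count filter of this comparison through 1 group only. Pclaf levels were 1.76, 1.77 and 1.27 CPM in Ctrl and 1.45, 0.485 and 0.614 in PT-KO, and the groups overlapped. Without the 2 Ctrl libraries that carry Xist the count was again 0 and the median was 0.05.

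Other genes of the same pathways were counted by role, by lists chosen with earlier results of these data known. Among all genes tested, 11.4% rose and 7.97% fell in Ctrl+I/R versus Ctrl, and 22.5% rose and 24.4% fell in PT-KO+I/R versus Ctrl+I/R, and the counts of the lists below are to be read against these shares. In PT-KO+I/R versus Ctrl+I/R, Ticrr, Clspn, Rmi2, E2f8 and Ttk passed the low-count filter through Ctrl+I/R alone, so a fall was the only call open to them. The other genes of these lists were not checked in this way. Of 14 genes of origin recognition and firing, 10 rose in Ctrl+I/R versus Ctrl, and 9 fell and 2 rose (Orc2 and Orc5) in PT-KO+I/R versus Ctrl+I/R. Ticrr, which helps to fire origins, had 55 to 65 counts per library in Ctrl+I/R and 0 to 2 in PT-KO+I/R. Orc1, the ATPase of the origin complex, fell by 2.09 and Cdc7, the origin-firing kinase, by 2.02 on the log2 scale.

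Of 20 other polymerase, loader and fork subunits, 17 rose in Ctrl+I/R versus Ctrl, and 12 fell and 1 rose in PT-KO+I/R versus Ctrl+I/R. Clspn, the fork mediator of the checkpoint kinase Chek1, stood at 8.49 to 12.2 CPM in Ctrl+I/R but 0.171 to 0.322 in PT-KO+I/R. Timeless, of the fork protection complex, fell by 2.85 and Pole2, a subunit of polymerase epsilon, by 1.95. The 1 that rose was Pold4, the smallest subunit of polymerase delta, with 3.99 to 7.10 CPM in Ctrl+I/R and 15.6 to 20.7 in PT-KO+I/R (log2 fold change 1.63 ± 0.22).

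Of 24 other genes of nucleotide synthesis, 9 rose and 1 fell in Ctrl+I/R versus Ctrl, and 15 fell and 4 rose in PT-KO+I/R versus Ctrl+I/R. Shmt1, which feeds one-carbon units to thymidylate synthesis, fell by 2.24, Dck, which salvages deoxycytidine, by 1.76 and Samhd1, which breaks down deoxynucleotides, by 1.20. Of 13 other replication-coupled chromatin genes, 8 rose in Ctrl+I/R versus Ctrl, and 6 fell and 1 rose in PT-KO+I/R versus Ctrl+I/R. Hells, a chromatin remodeller, fell by 3.19, Asf1b, a histone chaperone, by 2.25 and Atad2 by 1.99. In PT-KO+I/R versus PT-KO, 8 of these 13 rose and none fell, where 32.9% of all genes rose and 32.7% fell.

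Of 14 genes of replication checkpoint and repair, 11 rose in Ctrl+I/R versus Ctrl, and 11 fell and 1 rose in PT-KO+I/R versus Ctrl+I/R. Rmi2, which works with the Blm helicase, had 29 to 60 counts per library in Ctrl+I/R and 0 to 1 in PT-KO+I/R. Exo1, a repair nuclease, fell by 4.51 and Fancd2, of the Fanconi pathway, by 4.17. The 1 that rose was Rad18, a ubiquitin ligase for Pcna at stalled forks, by 1.40 ± 0.19.

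Of 24 other G1/S cyclins, kinases, E2F and pocket proteins, 13 rose and 1 fell in Ctrl+I/R versus Ctrl, and 10 fell and 1 rose in PT-KO+I/R versus Ctrl+I/R. E2f8, an E2F that represses its targets, had 60 to 128 counts in Ctrl+I/R and 2 to 3 in PT-KO+I/R. Ccna2, the S-phase cyclin, fell by 2.93 and E2f7, of the same repressing kind, by 2.81, and E2f4, the main E2F of resting cells, was the 1 that rose, by 0.88 ± 0.16. Of 20 mitosis genes, 13 rose in Ctrl+I/R versus Ctrl and 19 fell in PT-KO+I/R versus Ctrl+I/R. Top2a, a topoisomerase that untangles sister chromatids, fell by 4.25 and Bub1, a spindle checkpoint kinase, by 3.89, and Ttk, another, had 42 to 73 counts in Ctrl+I/R and 2 to 3 in PT-KO+I/R. Against PT-KO none of the 18 mitosis genes tested rose in PT-KO+I/R and 5 fell, where 32.7% of all genes fell.

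The inhibitors of cyclin-dependent kinases did not move as a group. Cdkn1a (p21) stood at 3.60 to 6.85 CPM in Ctrl, 15.2 to 40.9 in Ctrl+I/R, 2.15 to 4.48 in PT-KO and 187 to 256 in PT-KO+I/R. Between the injured groups it rose with the knockout label by 3.09 ± 0.33 on the log2 scale (edgeR, adjusted p = 4.5e-04). Cdkn2c fell by 1.34 and Cdkn1c by 0.86 in that comparison. Cdkn1b (-0.02), Cdkn2b (0.35) and Cdkn2d (-0.12) did not pass, and Cdkn2a was too low to be tested.

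**Figure D5:**
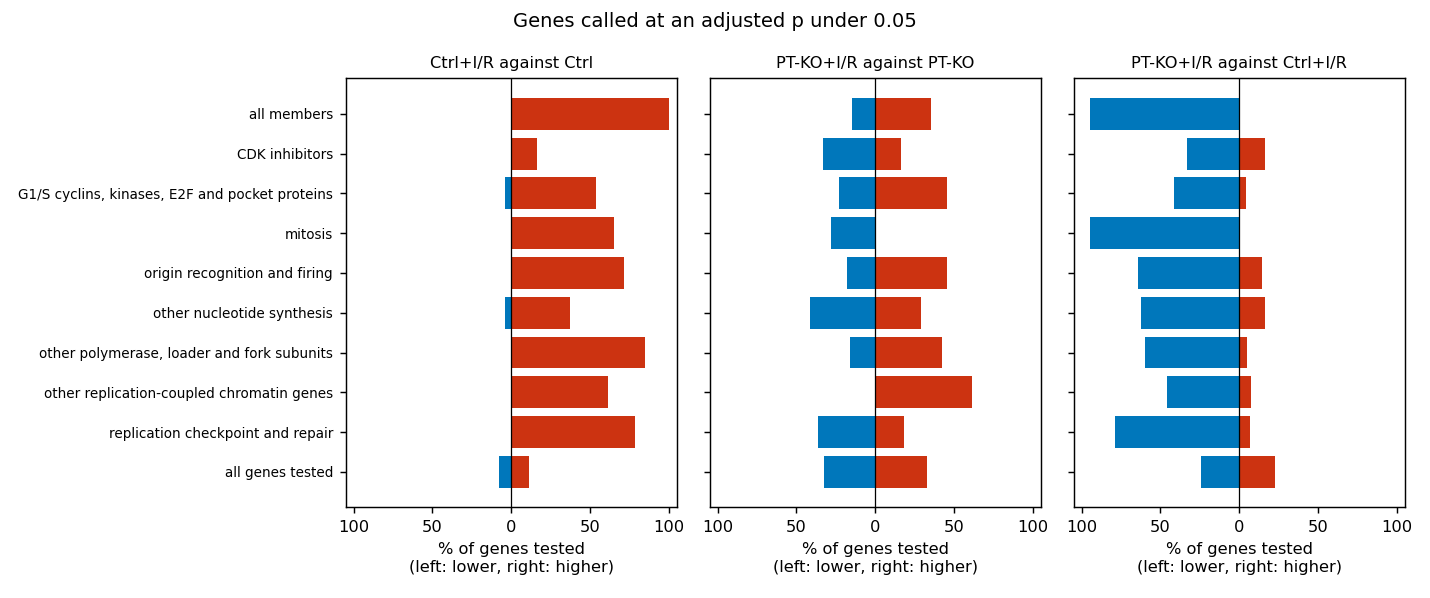
Share of the genes tested in each list (percent, bars to the right for genes that rose and to the left for genes that fell at an adjusted p under 0.05) in 3 comparisons, with all genes tested in the lowest bar. In Ctrl+I/R versus Ctrl every replication gene is to the right, and in PT-KO+I/R versus Ctrl+I/R 34 of 36 replication genes and 19 of 20 mitosis genes are to the left.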

How the data were processed

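The authors deposited a table of raw read counts per gene (whole numbers, not normalized), which the labels' processing notes tie to HISAT2 2.0.4 and mm10. The counting program, annotation and strand setting are not given in the sources used here, and 55141 of 55487 rows carry a symbol. Columns were mapped to groups by name. The 36 genes and the other lists were chosen with earlier results of these data known. Genes were tested with edgeR 4.0.16 in R 4.3.3 (filterByExpr with a minimum count of 10, TMM, glmQLFit and glmQLFTest), on the 6 libraries of each comparison or, for the interaction, on all 12, with Benjamini-Hochberg adjustment over all genes tested and calls at an adjusted p under 0.05. The fits were also run on simulated counts with known changes, and the outcome of that run is not given here. CPM values were scaled by TMM factors over all 12 libraries, and lengths are union exon lengths of GENCODE annotation on GRCm38. Log2 changes of genes with few counts depend on edgeR's prior count. The study's captions count mice as replicates, and the labels do not name the animals.

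All 36 genes are named, and from each other list the up to 3 called genes with the greatest fold change in PT-KO+I/R versus Ctrl+I/R, with every inhibitor of cyclin-dependent kinases. The few genes that rose against the rest of their list were named after their values were seen. The alternatives were DESeq2 1.42.0, library totals, no low-count filter, the replicate number as a block, 1 fit to all 12 libraries, sex as a covariate, no Xist-carrying Ctrl libraries, each library left out, and, in every comparison but the interaction, the rule that the study states for PT-KO+I/R versus Ctrl+I/R (a log2 change past 1 either way, with an unadjusted p below 0.01). The depth of 12165089 to 23123693 counts leaves genes below about 10 counts, such as Pclaf and Cdc6 in PT-KO+I/R, imprecise.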

Additional observations from a re-analysis of the deposited data

Results flagged for a closer look

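The response to I/R differed between genotype labels for 31 of the 36 genes, as tested by the interaction term in edgeR's quasi-likelihood fit to the 12 libraries (16.4% of all genes tested passed in this direction). In each of the 31 the I/R log2 fold change was lower in PT-KO, either a smaller rise or a fall, and the values below are the log2 fold change in PT-KO minus that in Ctrl. Among the helicase subunits they were Mcm2 (-1.58), Mcm3 (-2.51), Mcm4 (-1.58), Mcm5 (-2.66), Mcm6 (-1.30) and Mcm7 (-1.68). Licensing and activation factors gave Cdc6 (-3.51), Cdt1 (-1.39), Mcm10 (-2.08), Gins1 (-1.39), Gins2 (-1.46), Gins3 (-1.72), Gins4 (-0.79) and Cdc45 (-2.56). In the group of clamp loader, polymerase and ligase genes the values were Rfc4 (-1.03), Rfc5 (-1.31), Pola1 (-2.37), Prim1 (-2.60), Pole (-2.93), Pold1 (-1.07) and Lig1 (-1.95). With single libraries left out the test was lost for Pold1 in 5 of 12 fits and for Gins1 in 3. Deoxynucleotide enzymes gave Rrm1 (-1.05), Rrm2 (-1.04), Tyms (-0.74) and Tk1 (-3.97). The test for Rrm2 was lost in 7 of the 12 fits, with values from -1.24 to -0.68, the latter without PT-KO library 1. The G1/S regulators gave Ccne1 (-2.22), Ccne2 (-2.25) and E2f1 (-3.36). At the fork chromatin they were Uhrf1 (-3.05), Pclaf (-5.49) and Chaf1a (-2.05). The values of Pclaf and Cdc6 rest on 8 and 27 counts in all in PT-KO+I/R. Groups of 3 are too small for the test of single outlying samples.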

How the results depend on the processing

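No call changed direction. The median in PT-KO versus Ctrl, which rests on no called gene, was -0.04 but 0.05 without the Ctrl libraries that carry Xist and 0.07 with sex as a covariate. A median was taken as unchanged within 0.35 on the log2 scale, the largest spread between replicates of any group, that of Ctrl+I/R. This exceeds the medians of PT-KO+I/R versus PT-KO (0.23) and PT-KO versus Ctrl (-0.04), whose loss would go unmarked. Of 136 counts and medians over the 36 genes, 134 stayed within 1.5 times the count or within this spread. The exceptions were the count in PT-KO+I/R versus PT-KO under the rule that the study states for the injured groups (9 called in place of 17, 6 higher and 3 lower) and the count in PT-KO versus Ctrl with the replicate block (1, Mcm10, in place of 0). The cause was not tested. Leaving out each library gave 26 to 35 calls in Ctrl+I/R versus Ctrl, 31 to 34 in PT-KO+I/R versus Ctrl+I/R, 15 to 21 in PT-KO+I/R versus PT-KO, 0 in PT-KO versus Ctrl and 29 to 33 for the interaction. The numbers were not treated as pairing, since over 12 same-numbered pairs the residual correlation had a median of -0.03 and passed 0.1 in 1 pair. With the replicate block the calls were 35, 27, 14, 1 and 28 in that order. With sex as a covariate the median was 1.84 in Ctrl+I/R versus Ctrl and -1.63 for the interaction. The libraries that carry Xist are all Ctrl, so in this fit the contrasts with Ctrl rest on Ctrl library 3 alone.

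Counts over all genes were less stable. In Ctrl+I/R versus Ctrl 3019 genes were called, but 4938 in 1 fit to all 12 libraries, 1219 without the Ctrl libraries that carry Xist and 379 to 4061 with single libraries left out (379 or 413 when Ctrl 1 or 2 was dropped, 833 or 1635 when injured Ctrl 1 or 2 was). In PT-KO+I/R versus Ctrl+I/R 7169 genes were called, but 1683 with the block. In PT-KO versus Ctrl the count was 0, but 440 with DESeq2, 388 without the filter, 1378 with the block and 1930 without Ctrl library 3. For the interaction it was 4953, but 2539 without the Xist-carrying libraries, 3233 with sex as a covariate and 3215 with the block. Library totals gave 2346 higher and 766 lower in Ctrl+I/R versus Ctrl (1778 and 1241 with TMM), 1978 and 5080 in PT-KO+I/R versus Ctrl+I/R (3444 and 3725) and 1591 and 2997 for the interaction (2305 and 2648). Depth limits Pclaf, Cdc6, Ticrr, Clspn, Rmi2, E2f8 and Ttk in PT-KO+I/R.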
